A study of Rattus norvegicus with 20 samples.

Results

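Akr1c18, Prlr and Ptgfr, an enzyme and a pair of receptors that act on the progesterone output of the corpus luteum, were followed over 20 arrays of rat ovary. The set was selected on values measured on these same arrays, so its levels are a description and the p-values given with them are not independent evidence. It covers 3 of the 15705 genes named on the array and 4 of 30335 probes, taken by the transcript that the array design assigns to each probe. Akr1c18 (transcript NM_138510, now listed under the symbol Akr1c3) has 2 probes, A_64_P042127 and A_43_P13282. Prlr (NM_012630) has the probe A_44_P187181 and Ptgfr (NM_013115) the probe A_44_P307625. All 4 probes were well above background on all 20 arrays.

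The ovaries came from Sprague-Dawley daughters of dams that ate a mixture of brominated flame retardants from at least a week before mating until weaning on postnatal day 21. By share, DE-71 made up 52.1% of the mixture, BDE-209 44.2%, HBCD (hexabromocyclododecane) 3.3% and DE-79 0.4%; DE-71 and DE-79 are commercial polybrominated diphenyl ether products. The diets were made to deliver 0, 0.06, 20 or 60 mg per kg body weight per day, and the daughters were killed at 46 days, with 5, 4, 5 and 6 animals at these doses, each from its own litter. Replicate 4 at 0.06 mg/kg/day had been removed as an outlier by the submitters and was not analysed here. Whole ovaries were used, so a value is an average over follicles, corpora lutea and stroma, and fewer cells of a type cannot be told apart from less RNA per cell. The labels give no stage of the oestrous cycle or of puberty, so stage could not be set beside any value and was not tested.

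Akr1c18 encodes the rodent 20-alpha-hydroxysteroid dehydrogenase, which turns progesterone into a metabolite with little progestational activity. In the rat corpus luteum, prolactin acting through Prlr, the JAK2 kinase and the STAT5 factors keeps Akr1c18 low while the gland makes progesterone. Prostaglandin F2-alpha, acting through its receptor Ptgfr, raises Akr1c18 during luteal regression, and the factors NR4A1 and JUND have been linked to that rise.

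The sequences before the gene starts are shown because the 3 genes are described against each other and these factors are known to act on DNA. RefSeq on build GRCr8 places the 250 bases before the start of Akr1c18 at chr17:71020634-71020883 on the plus strand and those of Ptgfr at chr2:243425624-243425873 on the minus strand. Prlr has 2 starts in that table, and the second, at chr2:60909409-60909658 on the plus strand, is the one shown. Capitals mark motif matches.
Akr1c18: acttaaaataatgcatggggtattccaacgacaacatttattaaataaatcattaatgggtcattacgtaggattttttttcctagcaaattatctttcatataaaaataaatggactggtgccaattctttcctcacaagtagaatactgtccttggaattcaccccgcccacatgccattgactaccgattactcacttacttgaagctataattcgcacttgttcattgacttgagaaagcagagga
Ptgfr: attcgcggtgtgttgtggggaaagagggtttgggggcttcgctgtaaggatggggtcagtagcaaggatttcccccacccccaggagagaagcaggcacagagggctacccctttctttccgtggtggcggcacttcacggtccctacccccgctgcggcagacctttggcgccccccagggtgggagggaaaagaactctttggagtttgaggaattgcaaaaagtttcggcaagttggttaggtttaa
Prlr, second start: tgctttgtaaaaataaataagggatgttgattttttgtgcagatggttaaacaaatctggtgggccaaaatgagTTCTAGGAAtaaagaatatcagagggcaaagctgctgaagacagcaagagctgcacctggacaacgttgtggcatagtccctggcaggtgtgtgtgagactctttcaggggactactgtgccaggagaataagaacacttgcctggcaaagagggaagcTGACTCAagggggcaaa
Both strands were searched, from 250 bases before each start to 50 bases after it, for the STAT motif TTCNNNGAA, the NR4A1 element AAAGGTCA, the AP-1 motif TGANTCA, which JUND-containing dimers can read, and the SF-1 element AAGGTCA, which lies within the NR4A1 element. The second start of Prlr held a STAT match beginning at -176 and an AP-1 match beginning at -17. The windows of Akr1c18, of Ptgfr and of the first Prlr start held no match to any of the 4 motifs. Of all 33469 windows of this length in the table, 8.87% held the STAT motif, 1.43% the NR4A1 element, 7.33% the AP-1 motif and 4.61% the SF-1 element. A match says only that these letters are in the window.

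A value below is the log2 processed signal of a probe minus the log2 75th percentile of signal on its array, so 0 is that percentile and each unit is a doubling. Akr1c18, by its brighter probe, stood at 7.02, 5.95, 6.55, 6.69 and -4.23 in control replicates 1 to 5. At 0.06 mg/kg/day it stood at 7.05, -2.48, 6.14 and 6.73 in replicates 1, 2, 3 and 5. At 20 mg/kg/day it stood at 5.65, 5.94, 5.81, 5.31 and 6.21. The lowest, median and highest of the 6 animals at 60 mg/kg/day were 5.28, 6.10 and 6.73. Akr1c18 was therefore 5.28 or higher in 18 ovaries and far lower in 2, control replicate 5 and 0.06 mg/kg/day replicate 2. Nothing lay in between, over a gap of 7.77 log2, or 218-fold, which was 68.9% of the whole range.

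Against the median of the other 18 arrays, 6.17, Akr1c18 was 1354-fold lower in control replicate 5 and 403-fold lower in 0.06 mg/kg/day replicate 2. The processed signal was 80.8 and 216 units on these arrays and 54356 to 190014 on the others. The second Akr1c18 probe gave 1462-fold and 546-fold, with values of -5.28 and -3.86 against 4.28 to 6.40. Across arrays the probes correlated with an r of 0.999 over all 20 and 0.994 over the 18, and as they read the same transcript this is a technical repeat. The deposited table of the authors' log2 values also put these arrays lowest for both probes, at -10.34 and -8.45 for the first probe. By SD over the 20 arrays Akr1c18 ranked 11 among the 23274 probes tested, at 3.00 log2, and its second probe ranked 7.

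The scanner values of both arrays lay inside the range of the set. The 75th percentile of signal was 1517 and 1208 units (range 1158 to 1737) and 80.6% and 76.9% of spots were well above background (range 74.8% to 83.4%). The arrays came from different slides, 3 and 1, of the 3 in the study, each of which held all 4 doses. In the headers, the spike-in slope was 0 on 9 of the 20 arrays, among them control replicate 5 and not the other. All 12 luteal, 6 theca, 9 granulosa and 5 oocyte genes that were listed and had a probe passed the filter on low signal. So did all 4 oviduct epithelium, 5 smooth muscle and 5 erythrocyte genes with a probe, and 3 of 4 adipocyte genes. As genes of oviduct epithelium and adipocytes, cells from outside the ovary, passed too, the filter does not check the tissue label.

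**Figure D1:**
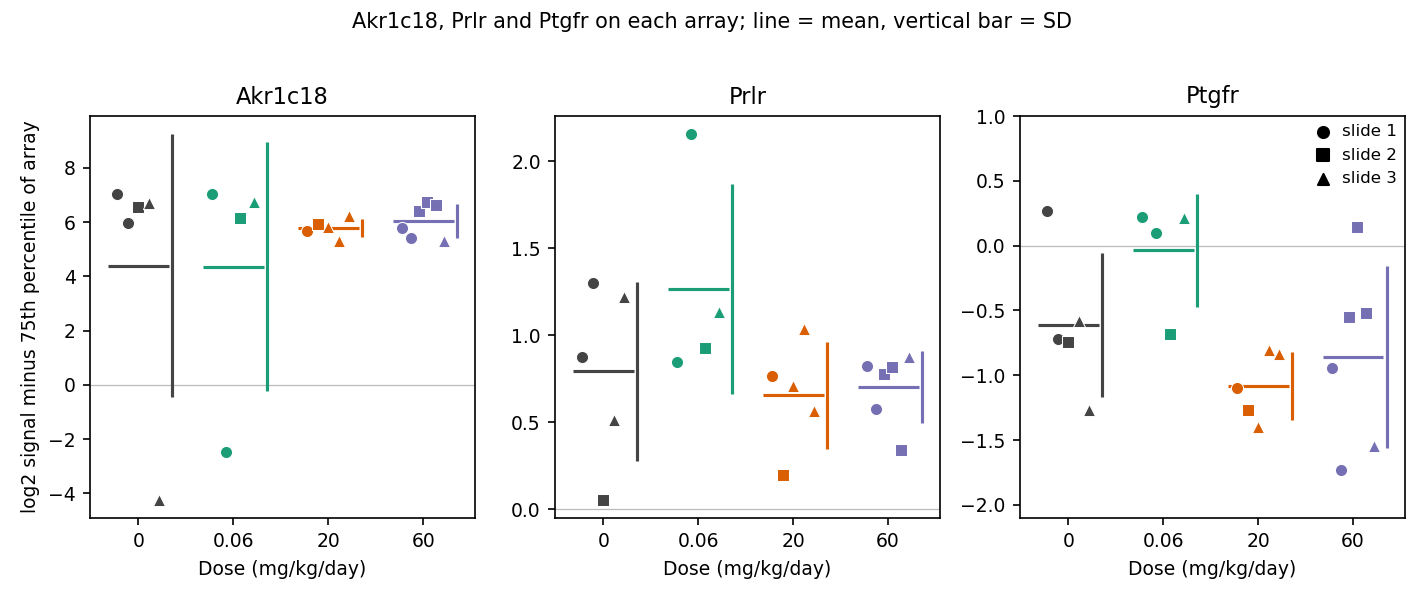
Log2 signal minus the 75th percentile of the array (vertical axis) against dose in mg/kg/day, with 1 point per animal, a shape per slide, a horizontal line at the group mean and a vertical bar of 1 SD; Akr1c18 is shown by its brighter probe, and each panel has its own scale. Akr1c18 sat between 5.28 and 7.05 on 18 arrays and at -4.23 and -2.48 on the other 2, while Prlr and Ptgfr showed no such break.

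Prlr, the receptor that carries the prolactin signal, varied far less. It stood at 0.87, 1.30, 0.05, 0.51 and 1.22 in control replicates 1 to 5 and at 0.84, 2.15, 0.93 and 1.13 in the 4 animals at 0.06 mg/kg/day. Those of the animals at 20 mg/kg/day were 0.77, 0.20, 0.71, 1.04 and 0.56. In the 6 animals at 60 mg/kg/day the lowest, median and highest were 0.34, 0.80 and 0.88. The 4 groups overlapped, and the highest array by 0.86 log2, or 1.81-fold, was 0.06 mg/kg/day replicate 2, the array with the second lowest Akr1c18. Control replicate 5, with the lowest Akr1c18, had the third highest Prlr. The SD over 20 arrays was 0.446 log2, above that of 75.3% of probes. Whether the probe reads the long form of the receptor, the short form or both is not known here.

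Ptgfr, the receptor of prostaglandin F2-alpha, stood at 0.26, -0.72, -0.75, -0.58 and -1.27 in control replicates 1 to 5. At 0.06 mg/kg/day it stood at 0.22, 0.10, -0.68 and 0.22. The animals at 20 mg/kg/day had -1.10, -1.27, -1.40, -0.81 and -0.84 in turn. Among those at 60 mg/kg/day the lowest, median and highest were -1.73, -0.75 and 0.14. The animals at 20 mg/kg/day all lay below 4 of the 5 controls and below all 4 animals at 0.06 mg/kg/day, and those at 60 mg/kg/day overlapped every other group. On 5 arrays, control replicate 1, 0.06 mg/kg/day replicates 1, 2 and 5 and 60 mg/kg/day replicate 4, Ptgfr was between 0.10 and 0.26, and on the other 15 it was -0.52 or lower. The SD over 20 arrays was 0.615 log2, above that of 87.6% of probes.

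Each dose was compared with 0 mg/kg/day to ask whether perinatal exposure left a difference in these genes. By group mean Akr1c18 was 4.40 ± 4.84 (SD, n = 5) at 0, 4.36 ± 4.58 (n = 4) at 0.06, 5.79 ± 0.336 (n = 5) at 20 and 6.04 ± 0.628 (n = 6) at 60 mg/kg/day. The differences from 0 were -0.04 ± 1.99, 1.39 ± 1.87 and 1.65 ± 1.79 log2 (SE), each smaller than its error, and the order of the means was not resolved between any neighbours. The low arrays sit in the lower dose groups and set both the size of the SD and the sign. Without those 2 arrays the means were 6.55 ± 0.446 (n = 4), 6.64 ± 0.463 (n = 3), 5.79 ± 0.336 (n = 5) and 6.04 ± 0.628 (n = 6), and the differences turned to 0.08 ± 0.36, -0.77 ± 0.31 and -0.51 ± 0.30. None of these passed either, with adjusted p from limma of 1.00, 0.638 and 0.749, and the arrays were left out for their Akr1c18 values, so these figures are a description.

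Prlr had means of 0.79 ± 0.516 (SD, n = 5), 1.26 ± 0.605 (n = 4), 0.65 ± 0.308 (n = 5) and 0.70 ± 0.206 (n = 6) at the 4 rising doses. It differed from 0 mg/kg/day by 0.47 ± 0.27, -0.14 ± 0.25 and -0.09 ± 0.24 log2 (SE). For the lowest dose the 95% interval was -0.09 to 1.03, and without the 2 arrays of low Akr1c18 the difference was 0.28 ± 0.24. At 60 mg/kg/day the sign turned with slide as a block, to 0.04 ± 0.22, and without those arrays, to 0.02 ± 0.20. Between neighbours in the order of the means, 0.06, 0, 60 and 20 mg/kg/day, the gaps were smaller than the SD within the groups.

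Ptgfr had means of -0.61 ± 0.555 (n = 5), -0.04 ± 0.433 (n = 4), -1.08 ± 0.261 (n = 5) and -0.86 ± 0.701 (SD, n = 6). It differed from 0 mg/kg/day by 0.57 ± 0.34, -0.47 ± 0.32 and -0.25 ± 0.31 log2 (SE), with 95% intervals of -0.14 to 1.29, -1.14 to 0.20 and -0.89 to 0.39. Without the 2 arrays of low Akr1c18 these were 0.36 ± 0.38, -0.64 ± 0.34 and -0.41 ± 0.32. In the order of the means, 0.06, 0, 60 and 20 mg/kg/day, the first gap was about the size of the SD within groups and the later ones were smaller. In the joint limma test of the 3 doses Ptgfr had an unadjusted p of 0.0369 and an adjusted p of 0.952, Prlr 0.130 and 0.952, and Akr1c18 0.715 and 0.962. Per step of the dose order the slopes were 0.62 ± 0.55 for Akr1c18, -0.08 ± 0.08 for Prlr and -0.16 ± 0.11 for Ptgfr.

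Of the 4 probes of these genes 0 passed an adjusted p of 0.05 in limma at any dose, jointly or over the dose order. Of all 23274 probes tested, 0% were called at 0.06, at 20 and at 60 mg/kg/day, 0% in the joint test and 0% over the dose order. At an unadjusted p under 0.05 there were 711, 1066, 1464, 739 and 1415 probes in these comparisons, or 3.05%, 4.58%, 6.29%, 3.18% and 6.08%. The doses share their controls, so the differences at the 3 doses are not independent of each other.

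**Figure D2:**
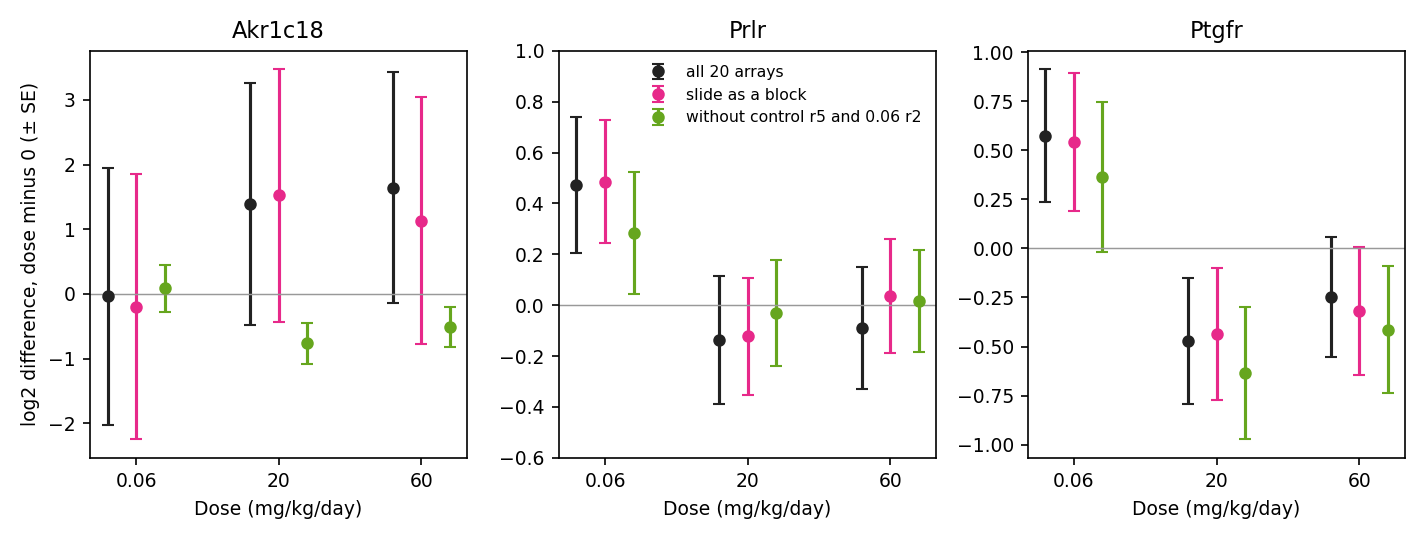
Log2 difference of each dose from 0 mg/kg/day (vertical axis, with bars of 1 SE) for Akr1c18, Prlr and Ptgfr, from all 20 arrays, with slide as a block, and without control replicate 5 and 0.06 mg/kg/day replicate 2; each panel has its own scale. The Akr1c18 differences at 20 and 60 mg/kg/day go from 1.39 and 1.65 to -0.77 and -0.51 when those arrays are left out, and those of Ptgfr keep their signs.

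Set against each other, Akr1c18 and Ptgfr moved together over the 18 arrays of high Akr1c18. Over these arrays Pearson's r was 0.862 and Spearman's rho 0.897, each with a two-sided permutation p of 1e-05, the smallest that 100000 resamples can give, and 3e-05 after Benjamini-Hochberg adjustment over 6 values (3 pairs, 2 measures). Without the arrays farthest from the median of Akr1c18, 60 mg/kg/day replicate 6 and 0.06 mg/kg/day replicate 1, r was 0.813 (permutation p 0.00017) and rho 0.862. Within slides 1, 2 and 3, with 6 arrays each, r was 0.978, 0.824 and 0.754. As deviations from the dose means, pooled over the 4 doses, r was 0.798. The 5 animals at 20 mg/kg/day alone did not follow it: replicate 4 had the lowest Akr1c18 and the highest Ptgfr of that dose, and groups of this size are too small for an r of their own. Leaving out any 1 array gave 0.839 to 0.916, the highest without 20 mg/kg/day replicate 4 (Akr1c18 5.31, Ptgfr -0.81).

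At the ends of that order, 60 mg/kg/day replicate 2 paired an Akr1c18 of 5.42 with the lowest Ptgfr, -1.73, and control replicate 1 paired 7.02 with the highest Ptgfr, 0.26. The arrays of low Akr1c18 did not extend the order. Control replicate 5 had a low Ptgfr of -1.27, and 0.06 mg/kg/day replicate 2 had one of the 5 highest, 0.10. As the 20 arrays fall into separate clusters by Akr1c18, no r pooled over them is given for its pairs with Ptgfr and Prlr. Among 12371 other genes ranked by rho with Akr1c18 over the 18 arrays, Ptgfr took place 4 from the top, where the median gene had a rho of -0.05 and the highest, Ptk2b, 0.94.

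For Prlr, no correlation with either gene passed the threshold. Over the same 18 arrays Prlr and Akr1c18 had an r of -0.128 (permutation p 0.614) and a rho of -0.063 (0.805), with adjusted p of 0.737 and 0.805. Over all 20 arrays Prlr and Ptgfr had an r of 0.337 (permutation p 0.148) and a rho of 0.221 (0.348), with adjusted p of 0.296 and 0.522. Without 0.06 mg/kg/day replicate 2 and control replicate 3, the arrays farthest from the median of Prlr, that r was 0.213, and within slides it was 0.478, 0.560 and 0.119. Within slides Prlr and Akr1c18 had r of 0.210, 0.049 and -0.259, and without the 2 arrays farthest from the median r was -0.139. By rho, slides 1, 2 and 3 gave 0.771, 0.086 and -0.086 for Prlr with Akr1c18. With Ptgfr they gave 0.714, 0.543 and 0.

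**Figure D3:**
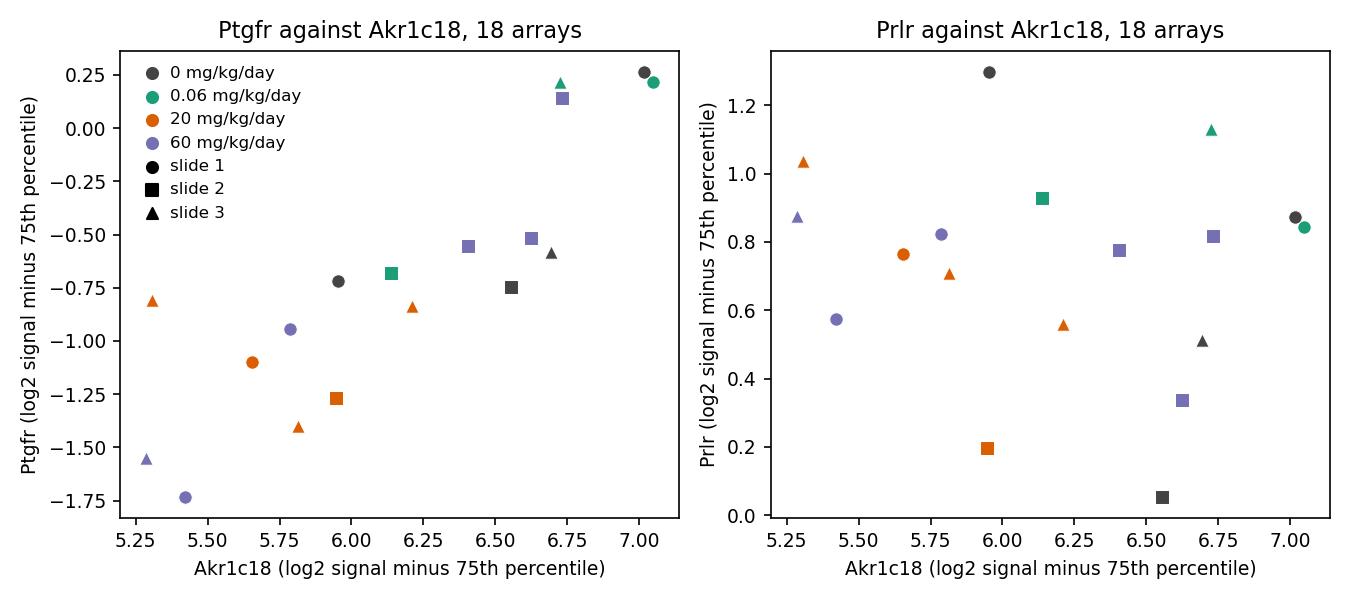
Ptgfr (left, vertical axis) and Prlr (right, vertical axis) against Akr1c18 (horizontal axes), all as log2 signal minus the 75th percentile of the array, over the 18 arrays of high Akr1c18, with colour for dose and shape for slide. Ptgfr climbs with Akr1c18 (r 0.862), and Prlr is scattered (r -0.128).

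Genes that resembled each member over the 20 arrays were taken from 12372 genes by Spearman's rho, as a description over the same arrays; for Akr1c18 this pools both clusters of arrays, and the rho over the 18 is given too. Nearest to Akr1c18 were Ptk2b, a focal adhesion family kinase (rho 0.96), Cdkn2b, an inhibitor of cyclin-dependent kinases (0.94), Nudt4, a diphosphoinositol phosphatase (0.92), Pon2, a lactonase of the paraoxonase family (0.92), and Tafa5, a small secreted protein (0.92). Cdkn2b stood at -4.57 and -4.37 on control replicate 5 and 0.06 mg/kg/day replicate 2 and at 0.09 to 2.47 on the others. Tafa5 stood at -7.05 and -7.16 there against -2.68 to -0.65, and Ptk2b at -2.04 and -1.85 against -0.34 to 1.23. Nudt4 was below the others on both, at 3.25 and 2.92 against 3.55 to 4.94. Pon2 was below them on control replicate 5 only, at 1.97 and 2.06 against 2.02 to 2.45. As the genes were picked by rho over all 20 arrays, low values on these arrays are partly built into the choice. Over the 18 arrays alone the rho with Akr1c18 was 0.94 for Ptk2b, 0.92 for Cdkn2b, 0.90 for Nudt4 and Pon2 and 0.89 for Tafa5. At the other end were Pds5b, a cohesin regulator (-0.92), Gemin2, of the SMN complex (-0.88), Eif4a2, a translation helicase (-0.86), Ctc1, a telomere factor (-0.85), and Sfi1, a centrosome protein (-0.84). Over the 18 arrays these were -0.89, -0.84, -0.80, -0.80 and -0.78.

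Prlr was most like Tgm4, a transglutaminase (rho 0.88), Tmem70, an assembly factor of the mitochondrial ATP synthase (0.86), Pakap (0.86), Gla, a lysosomal galactosidase (0.85), and C8h15orf61 (0.85). Tgm4 was highest on the arrays of low Akr1c18, at -3.97 and -2.93 against -7.58 to -4.90. The genes least like Prlr were Tmem132a (-0.88), Bcl3, a nuclear co-regulator of the I-kappa-B family (-0.87), Npl, which splits sialic acid (-0.87), Crispld2, a secreted protein (-0.84), and Col5a1, a collagen chain (-0.84). Crispld2 stood at 3.43 and 3.39 on control replicate 5 and 0.06 mg/kg/day replicate 2, below the 3.90 to 5.57 of the others. Prlr itself was high on these arrays, and the genes were picked by rho with it over all 20 arrays. The Tgm4 and Crispld2 values there are thus partly built into the choice.

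Ptgfr was most like Syt13, a synaptotagmin (rho 0.91), Cisd1, an iron-sulphur protein of the outer mitochondrial membrane (0.83), Aloxe3, a lipoxygenase (0.81), Ddrgk1, of the UFM1 conjugation pathway (0.80), and Crlf2, a cytokine receptor chain (0.80). Least like it were Ccdc8 (-0.84), Ska3, of the kinetochore (-0.84), Wdhd1, a replication factor (-0.83), Prdx4, a peroxiredoxin of the endoplasmic reticulum (-0.83), and Pole2, a subunit of DNA polymerase epsilon (-0.82). Syt13 stood at -5.48, its lowest value, in control replicate 5. In 0.06 mg/kg/day replicate 2 it stood at -3.05, near its median of -3.26 over the 18 arrays of high Akr1c18. As Syt13 was picked by rho over all 20 arrays, its values on these arrays are partly built into the choice.

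**Figure D4:**
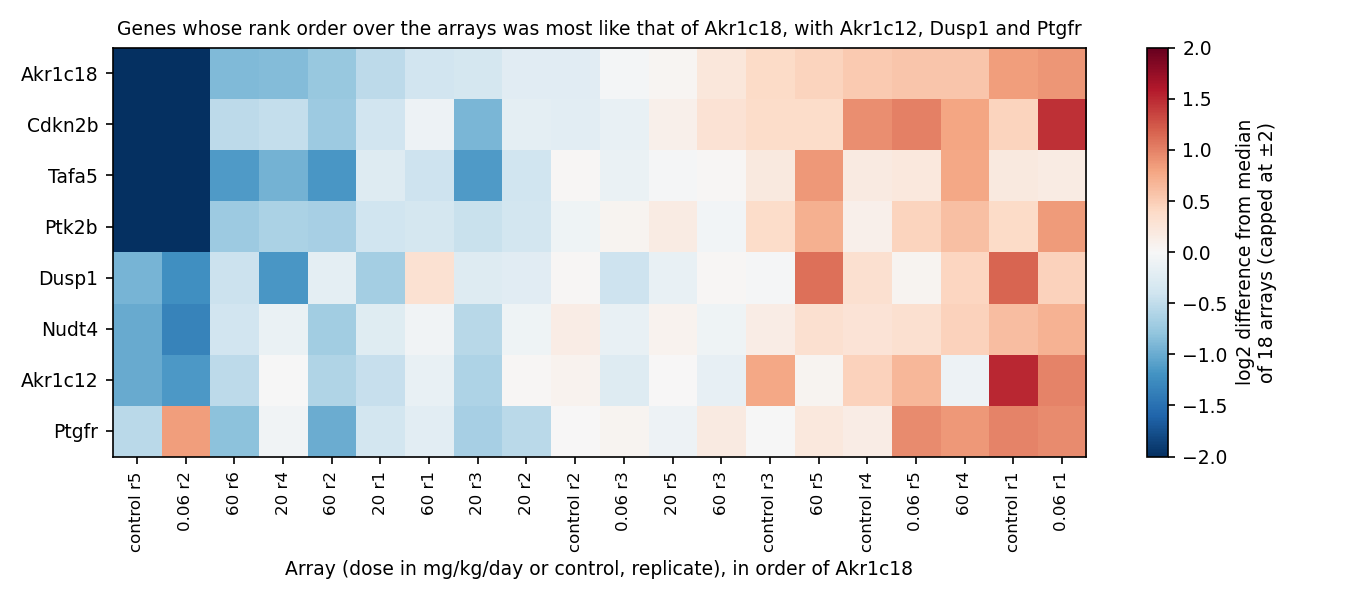
Log2 difference of each gene from its median over the 18 arrays of high Akr1c18 (colour, capped at 2 in either direction), with genes in rows and the 20 arrays in columns in rising order of Akr1c18. Cdkn2b, Tafa5 and Ptk2b are low with Akr1c18 on control replicate 5 and 0.06 mg/kg/day replicate 2, while Ptgfr is high on the second of these.

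The AKR1C family is a cluster of related enzymes for steroids and other carbonyls, several of them near-identical, so that a probe may also read a relative and the family values are uncertain. All 10 family genes had a probe and 8 passed the filter, whereas Akr1c1 and AKR1C3l1 were not well above background on any array. Akr1c12 was the one most like Akr1c18, with a rho of 0.81 over 20 arrays and 0.74 over the 18. It stood at -3.43 and -3.58 on the arrays of low Akr1c18 and at -3.06 to -0.93 on the others. Akr1c14, the 3-alpha-hydroxysteroid dehydrogenase that acts on the 5-alpha-reduced steroids, ran the other way (rho -0.41 over 20 arrays, -0.32 over the 18), at 0.37 and 0.10 within its range of -0.70 to 0.73. Srd5a1, the 5-alpha-reductase that competes for progesterone, was low in both, at -2.63 and -3.08 within a range of -3.15 to 0.94. On these arrays 2 and 4 of the 8 lay below all 18 others and 0 above. Of all probes tested, 9.91% and 13.3% lay below all 18 and 13.2% and 12.3% above. Akr1c18, by which the arrays were picked, is one of the family genes below, and without it 1 and 3 of 7 lay below. With Akr1c18 counted, family members above and below the control mean numbered 1 and 7 at 0.06, 3 and 5 at 20, and 3 and 5 at 60 mg/kg/day, with 0 called. Their median differences were -0.10, -0.20 and -0.19 log2, beside -0.03, 0.03 and -0.04 over all probes.

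Downstream of Prlr, the kinase Jak2 and the factors Stat5a and Stat5b were measured on every array. Stat5a stood at -0.87 and -0.93 in control replicate 5 and 0.06 mg/kg/day replicate 2, below the -0.59 to 0.08 of the other 18. Stat5b was -3.27 and -3.22, inside its range of -3.38 to -2.19, and Jak2 was -1.29 and -1.21, inside -1.40 to -0.48. Of the feedback inhibitors of this pathway, Cish was -2.85 and -2.15, inside -3.65 to -1.31, and Socs2 was -2.30 and -1.54 against -2.08 to -1.36. Ghr, the related growth hormone receptor, was -1.90 and -1.98, inside -2.57 to -1.48. Of the 20 genes on the prolactin list 19 passed the filter, and Prl itself was well above background on 1 array. On each low array 4 of the 19 lay below all 18 others and 1 above, beside 9.91% and 13.3% of all probes below and 13.2% and 12.3% above. Pgr, the progesterone receptor, was well above background on 2 arrays. Genes above and below the control mean numbered 10 and 9, 11 and 8, and 8 and 11 at the 3 doses, with 0 called, median differences of 0.00, 0.01 and -0.03, and 0, 2 and 4 at an unadjusted p under 0.05.

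Of the luteal genes, Lhcgr, Hsd17b7 and A2m lay above the other 18 on both arrays of low Akr1c18, Cyp11a1 on 1 of them, Timp1 lay below on both and Parm1 on 1, and the other 6 of the 12 lay within the range on both. Lhcgr, the luteinizing hormone receptor, was 1.32 in control replicate 5 and 2.10 in 0.06 mg/kg/day replicate 2, and -3.63 to -0.74 on the other 18. Hsd17b7, which is induced by prolactin in the rat corpus luteum, was 1.73 and 2.40 against -1.43 to 0.54. A2m, the alpha-2-macroglobulin gene and a target of prolactin and STAT5, was 5.17 and 5.46 against 1.51 to 3.70. For these 3 genes neither array overlapped the other 18. Star, Scarb1 and Cyp11a1, which bring in cholesterol and begin its conversion, showed no such separation. Star was 5.02 and 5.51 inside 4.38 to 5.71, Scarb1 6.00 and 5.91 inside 5.14 to 6.24, and Cyp11a1 7.19 and 7.66 against 6.65 to 7.45. Parm1, a further luteal marker, was -1.36 and -1.14 against -1.26 to 0.15, Sfrp4 was -1.06 and 0.51 inside -3.90 to 1.10, and Timp1, an inhibitor of matrix proteases, was 2.39 and 2.26, below the 3.58 to 6.14 of the rest.

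Over all probes tested, 13.2% lay above all 18 arrays and 9.91% below them in control replicate 5, and 12.3% above and 13.3% below in 0.06 mg/kg/day replicate 2. Of the 20 genes of luteal steroidogenesis, 3 and 7 lay above on these arrays and 1 and 2 below. On the luteal marker list of 12, which shares 5 genes with it, 3 and 4 lay above and 2 and 1 below. By mean log2 value the luteal list was at 2.21 and 2.55 against 1.57 to 2.12. Both arrays thus lay beyond the other 18 for many probes, not for Akr1c18 alone. No such share is given for any other array, so how unusual these shares are is not known. The part of any one list in the Akr1c18 values was not tested. By dose, 16, 15 and 14 of the 20 steroidogenesis genes were above the control mean, with medians of 0.29, 0.14 and 0.20, 0 called and 2, 1 and 2 at an unadjusted p under 0.05. The medians over all probes were -0.03, 0.03 and -0.04, and the genes share their animals and controls, so their directions are not independent.

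Markers of other cells moved too. Of 8 macrophage genes, 4 lay below all 18 arrays on control replicate 5 and 4 on 0.06 mg/kg/day replicate 2, and none of the 8 above. The shares of all probes below were 9.91% and 13.3%. Cd68, a lysosomal protein of macrophages, was -0.32 and -0.46 there against 0.00 to 1.85. By mean log2 value the macrophage list was -0.05 and -0.29 on these arrays and -0.23 to 1.04 on the other 18. At each dose 8 of 8 macrophage genes were above the control mean, by medians of 0.27, 0.50 and 0.58, with 0 called and 0, 3 and 5 at an unadjusted p under 0.05. Over all probes the medians were -0.03, 0.03 and -0.04, and 3.05%, 4.58% and 6.29% had an unadjusted limma p under 0.05. The 8 genes were read in the same animals against the same controls, so they are not separate agreements. The list mean ranged from -0.23 to 0.52 in controls, -0.29 to 1.00 at 0.06, 0.25 to 0.95 at 20 and 0.09 to 1.04 at 60 mg/kg/day. Its rho with Akr1c18 was 0.18 over 20 arrays and -0.09 over the 18, and with Prlr and Ptgfr over 20 arrays -0.44 and -0.12. Its part in the values of the 3 genes was not tested.

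Of 5 endothelial genes, 3 lay above all 18 on each of the low arrays, beside 13.2% and 12.3% of all probes. Kdr, a receptor of vascular endothelial growth factor, was 3.29 and 3.63 there against 1.87 to 2.85. The endothelial list mean was -0.44 and -0.24 against -1.25 to -0.44, and its rho with Prlr over 20 arrays was 0.67. Of the 6 theca genes, 2 and 0 lay above and none below. Cyp17a1, the androgen-forming enzyme of theca cells, was 2.69 and 1.71, against a range of -3.52 to 3.86 over the 18. No array of the 18 lay between -2.62 (control replicate 3) and 2.05 (60 mg/kg/day replicate 6), so the 1.71 fell in that gap. Every macrophage, endothelial and theca gene listed that had a probe was well above background on all 20 arrays, and the part of these cells in the Prlr values was not tested. Of 9 granulosa genes 1 and 0 lay above all 18, of 5 smooth muscle genes 1 and 0, and of 4 oviduct epithelium genes 0 and 1, with 0 and 1 below. No listed oocyte, adipocyte or erythrocyte gene lay beyond the 18 on either array.

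**Figure D5:**
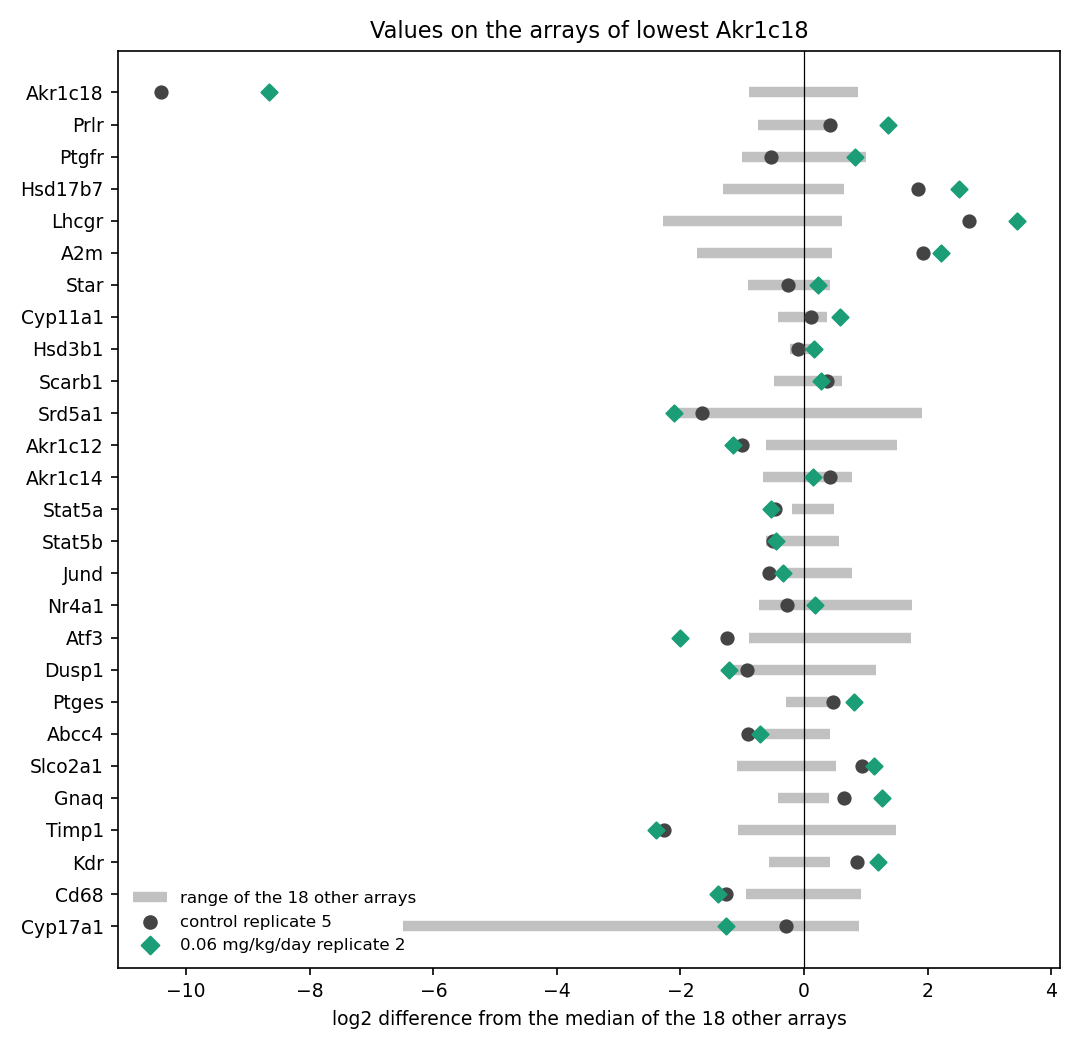
Log2 difference from the median of the 18 arrays of high Akr1c18 (horizontal axis) for Akr1c18, Prlr, Ptgfr and other genes of the lists, chosen for display with their values known; grey bars span the 18 arrays, circles are control replicate 5 and diamonds 0.06 mg/kg/day replicate 2. Akr1c18 lies far to the left, Lhcgr, Hsd17b7 and A2m to the right, and Star and Scarb1 within the bars.

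On the side of Ptgfr, genes that make, carry or read prostaglandins were mixed. Slco2a1, the prostaglandin transporter that takes the ligand into cells, was -2.99 and -2.79 on the arrays of low Akr1c18, above the -5.01 to -3.41 of the rest. Gnaq, the G protein subunit that Ptgfr couples to, was -4.40 and -3.79 against -5.47 to -4.65. Ptges, a synthase of prostaglandin E2, was 1.26 and 1.60 against 0.50 to 1.20. Others lay below the rest on both arrays. Pla2g4a was -4.48 and -5.42 against -4.44 to -3.46, and Abcc4 was 0.75 and 0.95 against 0.98 to 2.08. Over 20 arrays Gnaq and Slco2a1 had a rho with Prlr of 0.72 and 0.66, and with Ptgfr of 0.53 and 0.10. Hpgd, which breaks prostaglandins down, was 0.47 and -0.22 inside -0.94 to 1.95, and Ptgs2, the inducible cyclooxygenase, was well above background on 1 array.

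Of 25 genes on that list 24 had a probe and 22 passed the filter. On the low arrays 6 and 7 of these lay above all 18 others and 3 and 3 below. Over all probes the shares were 13.2% and 12.3% above and 9.91% and 13.3% below. Above and below the control mean were 12 and 10, 9 and 13, and 10 and 12 genes at the 3 doses, with 0 called, medians of 0.05, -0.02 and -0.06, and 2, 2 and 3 at an unadjusted p under 0.05. The smallest unadjusted p at 60 mg/kg/day belonged to Ptger2, a prostaglandin E2 receptor, which differed from 0 by -0.83 ± 0.28, -0.57 ± 0.26 and -0.87 ± 0.25 log2 (SE). Its adjusted p from limma was 1.00, 0.929 and 0.782.

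Of the factors linked to Akr1c18 induction, Nr4a1 stood at 0.02 and 0.46 on the arrays of low Akr1c18, inside its range of -0.45 to 2.03. Its rho with Akr1c18 was 0.11 over 20 arrays and 0.10 over the 18. Jund was 2.50 and 2.73, below the 2.82 to 3.84 of the other 18, with a rho of 0.53 over 20 arrays and 0.36 over the 18. Dusp1, a phosphatase of MAP kinases, had the highest rho on the list of luteal regression genes, 0.87 over 20 arrays and 0.82 over the 18, and Atf3, a stress-induced factor, had 0.74 and 0.64. Atf3 was -2.95 and -3.70 against -2.58 to 0.03. Of the 22 genes measured, 5 and 6 lay below all 18 on the low arrays and 1 and 0 above. Over all probes the shares were 9.91% and 13.3% below and 13.2% and 12.3% above. By dose 4, 6 and 6 were above the control mean and 18, 16 and 16 below, with medians of -0.22, -0.12 and -0.16, 0 called and 1, 2 and 0 at an unadjusted p under 0.05. The medians over all probes were -0.03, 0.03 and -0.04, and these genes too share their animals and controls.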

How the data were processed

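RNA from whole ovaries (100 ng) was labelled with Cy3, and 1 animal was hybridised per 1-colour Agilent rat array, per the labels. Feature Extraction 11.5.1.1 (protocol GE1_1105_Oct12) gave a linear processed intensity per spot, corrected for background, per the file headers; flags for background, saturation and outliers are as deposited. The deposited series table holds the authors' log2 values with an unknown baseline and was used as an alternative. The submitters' normalization is not given in the sources used here.

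Values are log2 processed signal minus the log2 75th percentile over non-control spots. Outlier spots were left out and spots of a probe averaged; 32 of 30367 probes were dropped. The 23274 probes that exceeded background clearly on 4 or more of the 20 arrays were tested, and 0 spots were saturated. Precision is limited by how many arrays there are; residual SD had a median of 0.275 log2. The array design names build rn4; transcripts were matched to RefSeq symbols of GRCr8, giving 18745 probes 1 symbol and 11590 none, so no probe coordinates are printed. A gene is shown by its brightest probe.

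limma 3.58.1 in R 4.3.3 fitted 4 dose means to all 20 arrays, with Benjamini-Hochberg adjustment at 0.05, for each dose against 0, jointly and over dose order. Correlations used 100000 permutations in Python 3.11.15 with scipy 1.17.1, and were taken over 18 arrays where Akr1c18 fell into separate clusters. Both steps were tested on simulated data. The members, gene lists and cell markers were chosen with earlier results of these data known. Named were all member probes, a fixed list of luteal genes, the 5 genes of highest and of lowest rho per member, and up to 2 genes of smallest p per list and dose; other genes were named after their values were seen. Alternatives were quantile normalization, normexp with an offset of 50, the deposited table, other filters, slide, spike-in set or replicate number as a block, the 2 groups compared alone, the second probe and leaving out arrays.

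Replicate numbers were checked as pairs: over 27 same-numbered pairs the correlation of deviations ran from -0.311 to 0.346 with a median of 0.034, and 8 were over 0.1, so they were not used as pairs. No gMeanSignal column was present, so normexp was run on the median signals.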

Additional observations from a re-analysis of the deposited data

Results flagged for a closer look

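In groups of 4 to 10 animals, 5 values of the 3 genes stood far from the rest of their group by Dixon's criterion, which chance alone meets in about 1 in 20 groups. For Akr1c18, control replicate 5 was the lowest of its group at -4.23 by the first probe and -5.28 by the second. Replicate 2 at 0.06 mg/kg/day was the lowest of its group at -2.48 and -3.86. The probes read the same transcript in the same RNA, so these are 2 animals and not 4 independent values. For Ptgfr, replicate 3 at 0.06 mg/kg/day was the lowest of its group at -0.68, while the other 3 animals of that dose were between 0.10 and 0.22. That value lies inside the range of the controls.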

How the results depend on the processing

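Of the recomputed values for the 3 genes, their correlations and the counts of called probes, 569 kept their direction and their side of the threshold and 16 changed sign, none of the latter past the threshold. All 16 were log2 differences of Akr1c18 or of Prlr at 60 mg/kg/day. Without control replicate 5 and 0.06 mg/kg/day replicate 2, an alternative added after seeing the data, Akr1c18 differed from 0 by 0.0839, -0.768 and -0.511 at the 3 rising doses and by -0.219 per step of the dose order, and Prlr at 60 mg/kg/day by 0.0168. Leaving out any 1 array gave -2.20 to 2.24 for Akr1c18 at 0.06, -0.77 to 2.04 at 20, -0.51 to 2.30 at 60 mg/kg/day, and -0.274 to 0.0362 for Prlr at 60. The values at 20 and 60 below 0 came without control replicate 5, and the 2.24 without 0.06 mg/kg/day replicate 2. With slide as a block Prlr at 60 mg/kg/day was 0.0351. The cause of these last sign changes was not tested.

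With the replicate number as a block Akr1c18 at 0.06 mg/kg/day was 0.16, and this block changed no call. The numbers did not pair the samples. Calls numbered 0 under each alternative run for a comparison; fitting only the 2 groups compared was run for the 3 doses and not for the joint test or the dose order. The r of Akr1c18 and Ptgfr ranged from 0.798 as deviations from dose means to 0.916 without 20 mg/kg/day replicate 4, apart from the values within slides, 0.754 to 0.978, and that without the 2 arrays farthest from the median, 0.813. The planned normexp on mean signals was not run, and median signals were used in its place.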
